A study of Mus musculus with 8 samples.

Results

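The genes described here encode the collagens, the laminin chains, the nidogens, the heparan sulphate proteoglycans perlecan (Hspg2) and agrin (Agrn), and fibronectin (Fn1). They were chosen by name: a protein-coding gene counted if its symbol was Col or Lam followed by a chain number, or was Nid1, Nid2, Hspg2, Agrn or Fn1. This gave 60 of the 53700 genes in the table, which holds 21929 protein-coding genes. All libraries came from Pkd1KO mice, in which Pkd1 flox/flox alleles had been deleted by a tamoxifen-inducible Cre (CAGG-CreER) that acts throughout the body and not only in the kidney. Mice received 3 doses of tamoxifen at an age of 5 to 6 weeks and were then fed LP (6% protein), NP (18%) or HP (60%) for 1 week at 2.8 g per day. No library of mice without Cre was compared, so every value is from Pkd1-deleted animals. The diets also differed in sucrose and starch, and protein cannot be told apart from these.

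Each library was made from sorted kidney tubular epithelial cells of a pool of 2 to 3 mice. There were 2 libraries on LP (labelled F2 and M), 3 on NP (F2, KO7 and M) and 3 on HP (F1, F2 and M), and values below are listed in that order. The letters F and M are read here as the sex of the mice, and the label KO7 has no such letter. The sort stained for the macrophage proteins CD11b and F4/80 and for the lectins LTL (proximal tubule) and DBA (collecting duct). Depth, estimated from the steps between low values, was 27100000 to 34600000 fragments per library. The unit is FPKM (fragments per length of transcript and depth), so levels can be compared between genes. In the library LP M, Ddx3y of the Y chromosome was at 9.74 FPKM and Xist at 16.3 FPKM, which goes against a pool of males only. Xist was nearly absent from NP KO7 (0.78 FPKM), much as from NP M (0.81 FPKM), while Ddx3y reached 7.99 and 12.4 FPKM there, a male profile. Female labels are thus held by F1 and F2 on HP but only by F2 on NP. Sex was not balanced between HP and NP. As LP M held both Xist and Ddx3y, it was not balanced against LP either. Part of a difference in any comparison of the diets can thus be one of sex. Summed markers of the 3 tubule segments exceeded those of every other cell type in each library, but no marker on the lists of endothelium (12 genes), fibroblasts and pericytes (11), podocytes (7) or macrophages (10) was at 0 in any library. In these bulk samples, more cells of a type and more RNA per cell cannot be told apart.

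A basement membrane is the thin sheet of matrix on which an epithelium sits. Its scaffold is a network of type IV collagen and a network of laminin, each laminin being a trimer of an alpha, a beta and a gamma chain. Nidogens and perlecan bind to both networks. The interstitial collagens (types I, III, V, VI and others) form fibres and microfibrils between the tubules and are made mainly by fibroblasts. Thickened basement membranes and interstitial fibrosis are known features of cystic kidneys.

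Basement membrane genes made up most of the RNA of these genes. Of the 60, 27 had a mean of at least 1 FPKM, 33 lay under 1 FPKM, and 11 of those lay under 0.1 FPKM. The 10 highest were Lama5 (34.8 FPKM over the 8 libraries), Agrn (29.3), Col18a1 (23.4), Lamb1 (18.9), Col4a1 (14.3), Col4a3 (13.9), Col4a4 (12.8), Col27a1 (10.6), Col4a2 (9.40) and Lamc1 (8.86), and of these only Col27a1 is not a basement membrane gene. Others above 1 FPKM were Lamb2, Hspg2, Col4a5, Nid2, Lama3, Lama1, Fn1, Col8a1, Col15a1, Col16a1, Col26a1, Col9a3, Lama4, Col5a2, Col3a1 and Col1a2. A total of 31 genes reached 1 FPKM in at least 2 libraries and were tested between the diets. Passing that limit can rest on the diet where a gene is high.

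**Figure D1:**
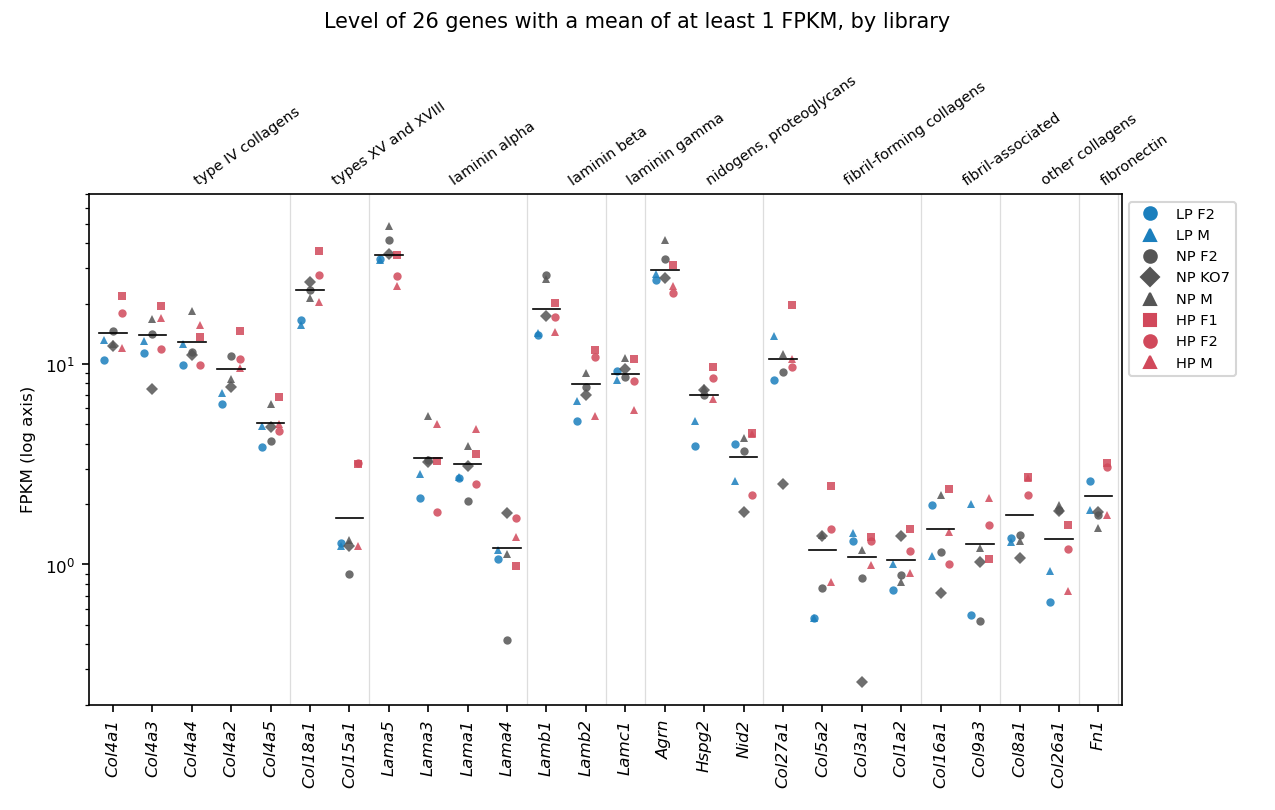
FPKM (log axis) of 26 genes with a mean of at least 1 FPKM, by role; each point is 1 library, coloured by diet and shaped by label, and the bar is the mean of the 8 libraries. Lama5 and Agrn lie highest, at 34.8 and 29.3 FPKM, and Col1a2 lies lowest, at 1.06 FPKM.

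The chains of type IV collagen are encoded in pairs of genes that lie head to head. In the RefSeq and GENCODE M21 annotations of GRCm38, the start sites of Col4a1 and Col4a2 are 21 bases apart on chromosome 8, those of Col4a4 and Col4a3 are 72 bases apart on chromosome 1, and those of Col4a6 and Col4a5 are 1343 bases apart on chromosome X. The 71 bases between the starts of Col4a4 and Col4a3 (chr1:82586850-82586920, GRCm38.p6) are shown because both genes read outwards from this stretch. They are given on the minus strand, as Col4a4 is read, and hold none of the 3 promoter motifs searched, which are named with the other promoters.
Col4a4 to Col4a3: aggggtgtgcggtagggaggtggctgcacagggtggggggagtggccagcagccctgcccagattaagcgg

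Col4a1, a chain of the network found in nearly all basement membranes, was at 10.4 and 13.1 FPKM on LP, 14.6, 12.3 and 12.6 FPKM on NP, and 21.7, 17.9 and 11.95 FPKM on HP. Col4a2, its partner chain, was at 6.32 and 7.20 FPKM on LP, 10.9, 7.63 and 8.43 FPKM on NP, and 14.6, 10.6 and 9.54 FPKM on HP. Every HP library of Col4a2 lay above both LP libraries, while HP overlapped NP. Col4a3, a chain of the network that matures in the glomerulus and in some tubules, was at 11.4 and 12.97 FPKM on LP, 14.0, 7.49 and 16.7 FPKM on NP, and 19.5, 11.9 and 17.0 FPKM on HP. Col4a4, which trimerises with Col4a3 and Col4a5, was at 9.92 and 12.5 FPKM on LP, 11.4, 11.1 and 18.4 FPKM on NP, and 13.7, 9.84 and 15.7 FPKM on HP. The diets overlapped in both of these. Col4a5, the chain shared by that network, had the narrowest range of the 31 genes tested, at 3.84 to 6.86 FPKM, its highest library being 1.79 times its lowest. Col4a6, its neighbour on the X chromosome, was at 0.198 FPKM.

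Ratios between the chains varied from library to library. The ratio of Col4a1 to Col4a2 was 1.25 to 1.82 over the 8 libraries, and that of Col4a3 to Col4a4 was 0.674 to 1.42. The ratio of the first pair to the second was 0.788 and 0.797 on LP, 1.00, 1.07 and 0.598 on NP, and 1.09, 1.31 and 0.657 on HP. It was under 1 in the libraries labelled M on each diet, and also in LP F2. These ratios are a description and were not tested. Podocytes and endothelium also make type IV collagen, and their summed markers were 54.6 (HP M) to 126 FPKM (HP F1) and 89.3 (NP F2) to 213 FPKM (HP F1). The part of such cells in these levels was not tested.

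**Figure D2:**
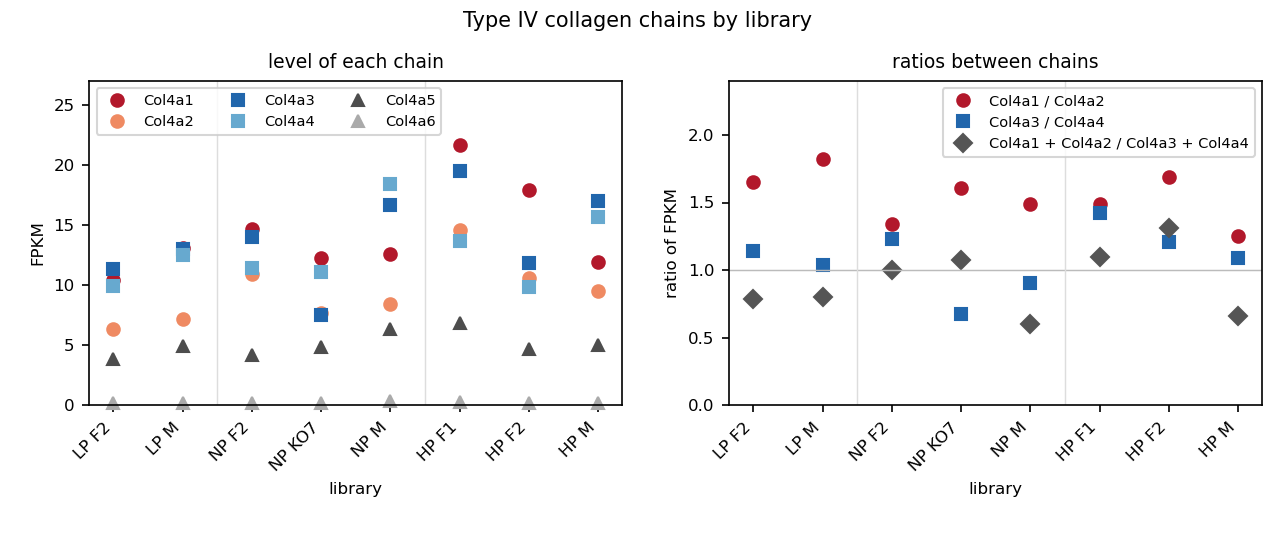
Left, FPKM of the type IV collagen chains in each library; right, ratios of FPKM between chains. Col4a1 lies above Col4a2 in all 8 libraries, and the ratio of both to Col4a3 and Col4a4 runs from 0.598 (NP M) to 1.31 (HP F2).

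Col18a1 and Col15a1 encode collagens of the basement membrane zone that carry heparan or chondroitin sulphate and release the fragments endostatin and restin. Col18a1 was at 16.6 and 15.7 FPKM on LP, 23.3, 25.6 and 21.3 FPKM on NP, and 36.7, 27.8 and 20.3 FPKM on HP. Its LP libraries lay below all others, and HP M lay below the NP libraries. Col15a1 was at 1.28 and 1.23 FPKM on LP, 0.90, 1.24 and 1.33 FPKM on NP, and 3.16, 3.22 and 1.24 FPKM on HP. Only the HP libraries F1 and F2 were above 1.33 FPKM. These 2 also had the highest sums of endothelial markers (213 and 184 FPKM, against 89.3 to 115 FPKM in the other 6). Their sums of fibroblast and pericyte markers were the highest too, at 67.2 and 68.3 FPKM. So were those of the thick ascending limb and distal tubule, at 2356 and 2037 FPKM, beside 1982 FPKM in NP KO7. The part of any of these cells in the level of Col15a1 was not tested.

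Laminin alpha chains were dominated by Lama5, the alpha chain of mature tubular basement membranes, which held 68.4 to 87.5% of the summed FPKM of the 5 alpha chain genes. Lama5 was at 33.3 and 32.8 FPKM on LP, 41.6, 35.2 and 48.9 FPKM on NP, and 34.98, 27.4 and 24.5 FPKM on HP. Every NP library lay above every LP and HP library, and NP KO7 and HP F1 were nearly level. Lama3, which in skin belongs to the laminin that anchors the epidermis, was at 2.15 and 2.81 FPKM on LP, 3.33, 3.26 and 5.48 FPKM on NP, and 3.28, 1.82 and 5.02 FPKM on HP. Lama1, a chain of early embryonic basement membranes, was at 2.07 to 4.75 FPKM, with the highest value in HP M, and Lama4, known from vessel walls, at 0.42 to 1.81 FPKM. Lama2, the alpha chain of muscle, was at 0.143 FPKM and was not tested.

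Of the beta chains, Lamb1 was at 13.9 and 14.3 FPKM on LP, 27.6, 17.3 and 26.4 FPKM on NP, and 20.1, 17.1 and 14.4 FPKM on HP. Lamb2, which takes the place of Lamb1 as the glomerular basement membrane matures, was at 5.18 and 6.52 FPKM on LP, 7.70, 6.97 and 9 FPKM on NP, and 11.8, 10.9 and 5.51 FPKM on HP. The ratio of Lamb1 to Lamb2 was 1.57 (HP F2) to 3.59 (NP F2). Both LP libraries lay below every NP library for both genes. Lamc1, the common gamma chain, was at 9.18 and 8.28 FPKM on LP, 8.57, 9.38 and 10.7 FPKM on NP, and 10.6, 8.25 and 5.90 FPKM on HP. HP M was its lowest library. Summed over the laminin chains, the mean was 70.9 ± 0.792 FPKM for the LP libraries (SD, n = 2), 96.9 ± 15.8 for the NP libraries (n = 3) and 76.3 ± 13.5 for the HP libraries (n = 3), and NP KO7 at 81.0 FPKM lay below HP F1 at 90.7 FPKM.

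Agrn, a heparan sulphate proteoglycan that links laminin to the cell surface, was at 26.3 and 28.1 FPKM on LP, 33.5, 26.7 and 41.4 FPKM on NP, and 31.2, 22.6 and 24.3 FPKM on HP. Hspg2, perlecan, was at 3.91 and 5.21 FPKM on LP, 7, 7.41 and 7.59 FPKM on NP, and 9.66, 8.47 and 6.66 FPKM on HP. The LP libraries of Hspg2 lay below all 6 others, while those of Agrn overlapped both diets. Nid2, a nidogen, was at 1.83 to 4.53 FPKM. The other nidogen, Nid1, was at 0.52 to 1.54 FPKM. It reached 1 FPKM only in HP F1 (1.54 FPKM) and HP F2 (1.19 FPKM), so it was tested only because it was high on HP.

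Interstitial collagens were low. Col1a2 and Col1a1, the chains of type I collagen, were at 1.06 and 0.303 FPKM. Col3a1, of type III collagen, was at 1.31 and 1.43 FPKM on LP, 0.86, 0.26 and 1.18 FPKM on NP, and 1.37, 1.31 and 0.99 FPKM on HP. Col5a2, which helps to set the width of type I fibrils, was at 0.54 in both LP libraries, 0.76, 1.38 and 1.41 FPKM on NP, and 2.46, 1.51 and 0.82 FPKM on HP. Its partner chains Col5a1 and Col5a3 lay at 0.15 and 0.135 FPKM. None of the 6 type VI genes was tested. The highest of them was Col6a3, at 0.68 and 0.97 FPKM on LP, 0.09, 0.11 and 0.49 FPKM on NP, and 0.47, 0.93 and 0.74 FPKM on HP, and the next, Col6a1, was at 0.28 and 0.37 FPKM, 0.28, 0.22 and 0.41 FPKM, and 0.47, 0.36 and 0.40 FPKM. One fragment in a transcript of 1 kilobase is worth 0.0289 to 0.0369 FPKM here, and less in a longer transcript. The number of fragments behind the 11 genes under 0.1 FPKM was not estimated, and their values are uncertain.

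Col27a1, a fibril-forming collagen known from cartilage, stood apart from this group, at 8.35 and 13.7 FPKM on LP, 9.07, 2.51 and 11.2 FPKM on NP, and 19.7, 9.62 and 10.5 FPKM on HP. NP KO7 was its lowest library and HP F1 its highest. Among the fibril-associated collagens, Col16a1 was at 1.97 and 1.10 FPKM on LP, 1.16, 0.72 and 2.23 FPKM on NP, and 2.38, 1.00 and 1.46 FPKM on HP, and Col9a3, a chain of type IX collagen, at 0.56 and 2.01 FPKM, 0.52, 1.03 and 1.21 FPKM, and 1.06, 1.58 and 2.15 FPKM. Col8a1, a short-chain collagen that forms hexagonal networks in Descemet's membrane and in vessel walls, was at 1.35 and 1.3 FPKM on LP, 1.40, 1.08 and 1.31 FPKM on NP, and 2.73, 2.21 and 2.71 FPKM on HP. All 3 HP libraries lay above all 5 others, HP M included. Col26a1, a collagen with an EMI domain, was at 0.65 and 0.93 FPKM on LP, 1.86, 1.84 and 1.99 FPKM on NP, and 1.57, 1.20 and 0.74 FPKM on HP, so that NP was highest without overlap. Fn1, fibronectin, which cells assemble into fibrils through integrins, was at 2.62 and 1.87 FPKM on LP, 1.76, 1.83 and 1.52 FPKM on NP, and 3.20, 3.08 and 1.77 FPKM on HP.

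Promoter sequences of RefSeq (GRCm38.p6) were matched by symbol for 43 of the 60 genes, in 48 windows. In the 250 bases before the start, the median GC content was 60% in these windows and 52.4% in all 32851 windows. The GC box, spelled GGGCGG and searched on both strands, was in 58.3% of these windows and in 32.7% of all. The CCAAT box, spelled as its name, was in 31.2% of these and 33.8% of all, and the TATA box, spelled TATAAA, in 10.4% of these and 12.4% of all. Motifs that overlap were each counted. A match is a string of letters and not a site shown to be used. The stretches below are given 5′ to 3′ as each gene is read and end before its first annotated exon, with these letters in capitals. Lama5, the highest gene (chr2:180225860-180226109, minus strand), and Hspg2 and Col8a1, with the smallest p-values between diets (chr4:137468553-137468768, plus strand, and chr16:57754738-57754987, minus strand), hold 4, 5 and 4 GC boxes. Col3a1 (chr1:45311288-45311537, plus strand), shown as a fibril-forming collagen at a low level, holds 1 TATA box and no GC box, at a GC content of 35.2% against 72.4% in Lama5.
Lama5: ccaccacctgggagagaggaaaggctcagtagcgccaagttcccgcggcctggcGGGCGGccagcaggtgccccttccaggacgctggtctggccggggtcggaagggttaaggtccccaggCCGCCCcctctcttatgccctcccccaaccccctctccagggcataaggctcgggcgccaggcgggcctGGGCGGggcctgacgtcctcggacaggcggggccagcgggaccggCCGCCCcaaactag
Hspg2: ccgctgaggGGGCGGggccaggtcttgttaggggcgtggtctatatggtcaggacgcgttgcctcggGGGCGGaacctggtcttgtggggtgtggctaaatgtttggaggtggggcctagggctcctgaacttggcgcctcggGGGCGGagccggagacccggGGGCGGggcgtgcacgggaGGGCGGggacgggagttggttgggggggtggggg
Col8a1: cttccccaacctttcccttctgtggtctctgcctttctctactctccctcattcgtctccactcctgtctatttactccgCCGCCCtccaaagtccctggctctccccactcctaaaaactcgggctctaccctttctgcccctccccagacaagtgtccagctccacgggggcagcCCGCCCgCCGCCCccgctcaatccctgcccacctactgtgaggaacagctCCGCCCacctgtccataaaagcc
Col3a1: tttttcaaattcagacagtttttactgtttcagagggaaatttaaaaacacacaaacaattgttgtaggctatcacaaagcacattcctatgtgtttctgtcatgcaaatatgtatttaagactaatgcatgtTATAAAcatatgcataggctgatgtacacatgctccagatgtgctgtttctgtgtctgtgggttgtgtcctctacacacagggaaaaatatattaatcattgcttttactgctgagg

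The first comparison asks which of these genes differed between HP and NP, that is, with more protein than in the normal diet. By limma on log2(FPKM + 1) over 13566 genes, 0 of the 31 passed an adjusted p of 0.05 (0.0221% of all genes did). At an unadjusted p under 0.05, 2 were higher on HP (2.96% of all genes) and 1 was lower (5.92%). Col8a1 had a log2 fold change of 0.65 (standard error 0.16, adjusted p = 0.308), and Col15a1 of 0.66 (0.26, adjusted p = 0.508). Lama5 had a log2 fold change of -0.52 (0.17, adjusted p = 0.440). HP lay above NP without overlap in 2 genes, Col8a1 and Col12a1 (3.66% of all genes), and below it in 2, Lama5 and Col26a1 (8.78%). Col12a1, a fibril-associated collagen, reached 1 FPKM only in the 3 HP libraries (1.49, 1.07 and 1.02 FPKM, against 0.42 to 0.93 in the others), so it was tested only because it was high on HP. Col27a1 had the largest estimate, 0.85, with a standard error of 0.46 (adjusted p = 0.638), and was -0.0024 in a fit with the libraries' label, F2 or M, as block. In that blocked fit, which leaves out HP F1 and NP KO7, 5 of the 31 were lower at an unadjusted p under 0.05 and 2 higher, and of all genes 16.2% were lower and 4.19% higher, so the lower share was that of the background. Without HP M, 6 were higher (5.59% of all genes) and 0 lower (5.52%). Leaving out NP F2, HP F1 or HP F2 left 1 higher (2.46, 1.52 and 1.72% of all genes). Leaving out NP KO7 or HP F1 gave 4 lower (6.91 and 6.74%), and leaving out NP M gave 0 lower (5.31%).

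Against LP, HP gave more genes on the higher side. No gene of the 31 passed the adjusted threshold by limma (0.0147% of all genes did), while 5 were higher at an unadjusted p under 0.05 (5.06% of all genes) and 0 were lower (7.32%). The 5 were Hspg2 (log2 fold change 0.73, standard error 0.19, adjusted p = 0.2497), Col8a1 (0.61, 0.18, adjusted p = 0.286), Col18a1 (0.73, 0.22, adjusted p = 0.288), Col4a2 (0.68, 0.21, adjusted p = 0.294) and Col5a2 (0.70, 0.29, adjusted p = 0.364). Of these, 3 belong to the basement membrane, 1 to the interstitial fibrils and 1 to other networks. HP lay above LP without overlap in 7 genes (12.8% of all genes), which were these 5, Lamb1 and Col12a1, the last tested only through its HP libraries, and below it in 0 (20.3%). After rescaling without haemoglobin and mitochondrial genes, which moved the median of all genes from -0.04 to 0.09, 8 genes were higher, beside 8.58% of all genes higher and 2.81% lower. Without HP M the count was 10 (7.56% of all genes). It was 4 without HP F1 or HP F2 (2.45 and 3.52%) and with the label as a block (4.68%). Leaving out LP M, the library with both Xist and Ddx3y, or LP F2 leaves LP a single library. The median log2 fold change of the 31 was then 0.38 and 0.26, beside 0.26 with all libraries.

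Between LP and NP, most of these genes had the lower value on LP. By limma, 0 of the 31 passed the adjusted threshold (0.0147% of all genes did), 0 were higher at an unadjusted p under 0.05 (4.57% of all genes) and 5 were lower (5.82%). Among the lower ones were Col26a1 (log2 fold change -0.70, standard error 0.22, adjusted p = 0.409), Hspg2 (-0.59, 0.19, adjusted p = 0.409), Lamb1 (-0.69, 0.22, adjusted p = 0.409) and Col18a1 (-0.51, 0.22, adjusted p = 0.476). LP lay below NP without overlap in 10 genes (16.4% of all genes), among them these 4 and Lama5, Lama3, Lamb2, Col4a2 and Col5a2, and above it in 2, Col3a1 and Fn1 (12.7%). When the label was taken as a block, 10 genes were lower at an unadjusted p under 0.05, and the share of all genes was also larger, at 12.3%. The count was 3 without LP M or without NP M (4.42 and 4.67% of all genes) and 0 without LP F2 (1.54%), a fit where LP is a single library assumed to vary like the others. Each diet takes part in 2 of the 3 comparisons, so a low LP value enters both the HP and the NP contrast.

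**Figure D3:**
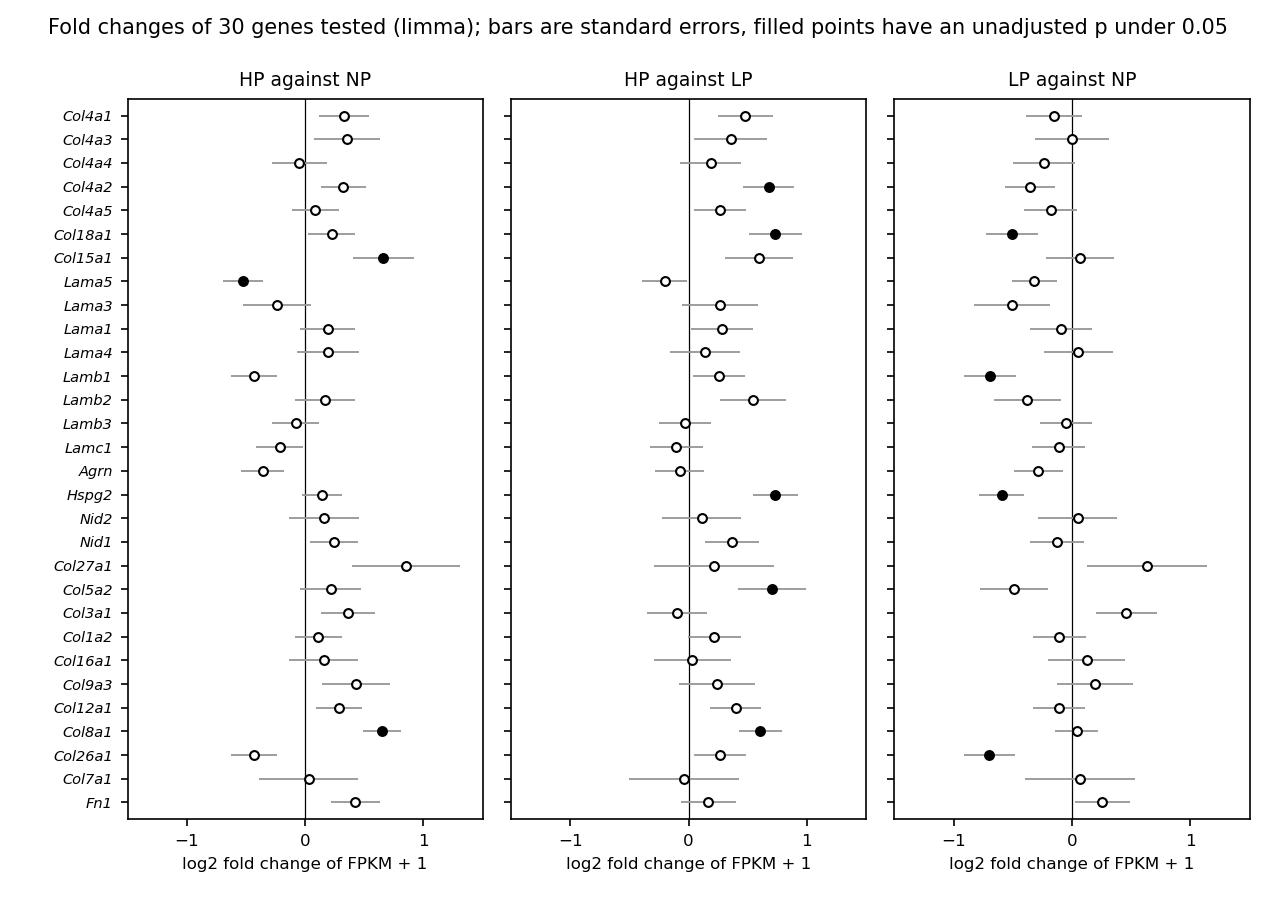
Log2 fold change of FPKM + 1 in the 3 comparisons for 30 of the 31 genes tested, ordered by role; bars are standard errors, and filled points have an unadjusted p under 0.05. No gene passed the adjusted threshold. Points above 0 number 22 of 30 for HP against NP, 24 for HP against LP and 11 for LP against NP. Col12a1 and Nid1, tested only through their HP libraries, are among those above 0 in both HP comparisons.

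The comparison of basement membrane with interstitial collagens rests on 8 genes of the first kind (Col4a1 to Col4a6, Col15a1 and Col18a1, 7 of them tested) and 15 of the second (types I, III, V, VI, XII, XIV and XVI, 5 tested). Summed FPKM of the basement membrane collagens was 59.9 and 67.8 on LP, 79.5, 70.5 and 85.4 on NP, and 116, 86.1 and 80.9 on HP. The interstitial collagens summed to 7.31 and 7.20 FPKM on LP, 5.38, 6.24 and 9.08 FPKM on NP, and 11.7, 8.79 and 7.85 FPKM on HP. LP was lowest without overlap for the first sum. HP lay above LP without overlap in the second sum too, while NP overlapped both. Their ratio averaged 8.80 ± 0.867 for the LP libraries (SD, n = 2), 11.8 ± 2.72 for the NP libraries (n = 3) and 10.01 ± 0.263 for the HP libraries (n = 3). These ratios overlapped between NP and the other diets, and every HP ratio (9.79 to 10.3) lay above both LP ratios (8.19 and 9.41). That order depends on the genes listed. With all basement membrane genes over the same interstitial collagens, the ratio was 22.6 and 24.4 on LP. It was 41.2, 30.1 and 27.8 on NP, and 21.7, 22.1 and 23.0 on HP. There HP overlapped LP, and NP lay above both without overlap. The order also depends on leaving out Col27a1, a fibril-forming collagen whose mean level exceeds the mean sum of all 15. With it added, a choice made after seeing the data, the ratio was 3.82 and 3.24 on LP, 5.50, 8.05 and 4.21 on NP, and 3.71, 4.67 and 4.40 on HP, and HP overlapped LP. With type IV against types I and III only, the ratio was 18.3 and 18.4 on LP, 22.9 to 28.5 on NP and 19.6 to 26.8 on HP.

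**Figure D4:**
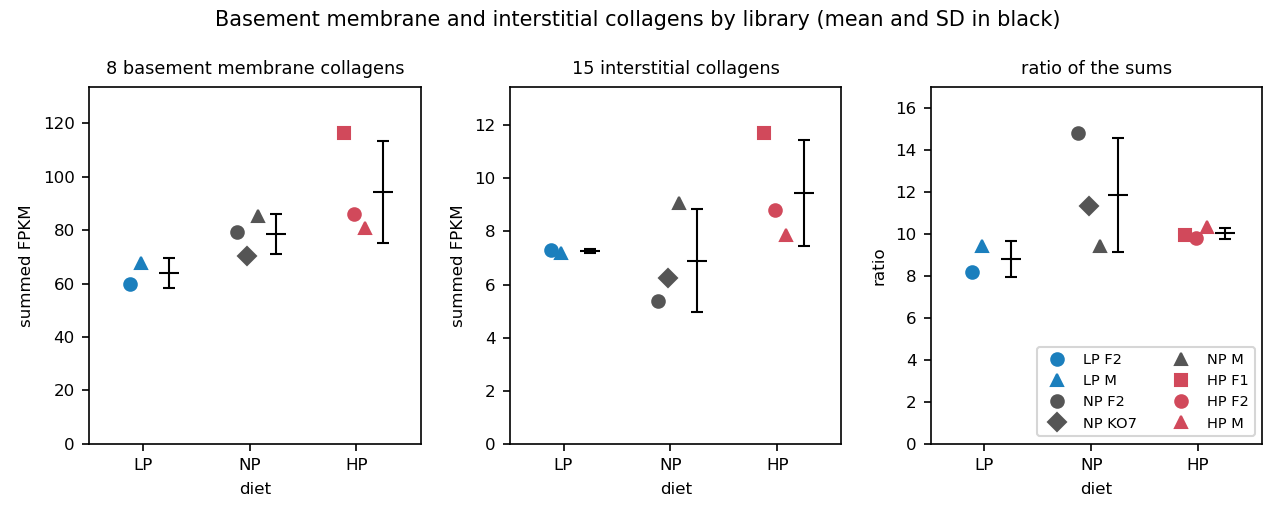
Summed FPKM of the 8 basement membrane collagens and of the 15 interstitial collagens, and the ratio of the sums, by diet; each point is 1 library and the black bars are the mean and SD. LP lies lowest in the first panel, at 59.9 and 67.8 FPKM, and the ratio is 8.19 to 14.8.

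By fold change, the median of the basement membrane collagens was 0.32 for HP against NP, 0.48 for HP against LP and -0.18 for LP against NP. The interstitial collagens tested had medians of 0.22, 0.22 and -0.11, and all genes tested had -0.05, -0.04 and -0.02. Without HP F1, the basement membrane collagens had 0.15 for HP against NP and 0.30 for HP against LP, the interstitial collagens 0.013 and 0.12, and all genes -0.11 and -0.10. Of the 7 basement membrane collagens tested, 6 lay above 0 for HP against NP, 7 for HP against LP and 2 for LP against NP. Of the 5 interstitial collagens the numbers were 5, 4 and 2. Among these 5 was Col12a1, tested only because it was high on HP, at 0.29 for HP against NP and 0.40 for HP against LP. With no filter on low values, the medians of all 15 interstitial collagens were 0.14, 0.09 and 0.01. Those of the 8 basement membrane collagens were then 0.27, 0.42 and -0.17, and those of all genes were 0. The wider list of 20 basement membrane genes tested, with laminins, nidogens (Nid1 tested only through HP) and proteoglycans, had medians of 0.15, 0.27 and -0.21. Its HP against NP median turned to -0.09 with the labels as a block and to -0.01 without NP F2, beside -0.13 and -0.05 for all genes. In that comparison the type IV chains had 4 of 5 above 0 and the laminin chains 3 of 9.

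Some libraries held the highest or lowest value more often than others. HP F1 was the highest library in 18 of the 31 genes, or 58.1%, against 21.2% of all genes tested. LP F2 was the lowest in 10 (32.3%, against 18.3%), and HP M lay below both other HP libraries in 19 (61.3%, against 44.0%). Nid1 and Col12a1, tested only because they were high on HP, are among the 18 and the 19. So are Lamb3 and Col7a1, which reached 1 FPKM only in HP F1 (1.28 and 1.71 FPKM) and NP M (1.14 and 1.66 FPKM). HP M is also the only HP library with a male label, so sex and pool cannot be told apart there. Within the label F2, HP was above NP in 17 of 31 genes (37.7% of all genes), and within M in 10 (31%). Against LP the counts were 20 (42.5%) and 17 (32.2%), and LP was above NP in 11 (44.0%) and 7 (47.2%). HP F1 has no partner of its label and does not enter these counts.

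Markers of other cells also differed between the libraries, and not all in the same direction. The 12 endothelial markers all lay above 0 for HP against NP, 6 of them at an unadjusted p under 0.05 (2.96% of all genes). Their median log2 fold change was 0.56, and they summed to 94.8 to 107 FPKM on LP, 89.3 to 115 on NP and 107 to 213 on HP. Fibroblast and pericyte markers had 8 of 9 tested above 0 and summed to 35.6 to 36.8 FPKM on LP, 36.7 to 42.4 on NP and 40.0 to 68.3 on HP. Podocyte markers summed to 57.2 and 57.5 FPKM on LP, 63.0 to 105 on NP and 54.6 to 126 on HP. Markers of the thick ascending limb and distal tubule summed to 530 to 577 FPKM on LP, 895 to 1982 on NP and 1027 to 2356 on HP, and those of the collecting duct to 163 to 179, 312 to 517 and 258 to 422 FPKM. Macrophage markers were at 93.6 to 104, 43.1 to 99.8 and 88.7 to 132 FPKM, and proximal tubule markers spanned 6791 (HP F1) to 37431 FPKM (NP KO7). For HP against NP, 3 of 7 podocyte, 9 of 9 macrophage and 1 of 10 proximal tubule markers tested lay above 0. For the thick ascending limb and distal tubule the count was 7 of 7, and for the collecting duct 4 of 10. For HP against LP, 10 of 10 collecting duct and 7 of 7 thick ascending limb and distal tubule markers lay above 0. Their median log2 fold changes were 0.90 and 1.59. For LP against NP, 0 and 1 lay above 0, at medians of -0.96 and -1.17. Endothelial markers had 12 and 3 of 12 above 0 in these comparisons, and fibroblast and pericyte markers 8 and 3 of 9. Podocyte markers had 6 and 0 of 7, proximal tubule 5 and 0 of 10, and macrophage 7 and 9 of 9. In HP M the endothelial and fibroblast sums, 107 and 40.0 FPKM, were within the LP and NP range, as was Col15a1. Its macrophage sum, 131 FPKM, lay above the LP and NP range, as did Col8a1, and its podocyte sum, 54.6 FPKM, lay below. The part of these cells in the levels of the collagens and laminins was not tested.

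The machinery around the matrix was taken from 4 fixed lists. Of 20 tested genes that fold, modify and cross-link collagen, 0 were higher and 0 lower at an unadjusted p under 0.05 for HP against NP, 4 were higher for HP against LP, and 3 were lower for LP against NP. Of all genes, 2.96% were higher and 5.92% lower for HP against NP, 5.06 and 7.32% for HP against LP, and 4.57 and 5.82% for LP against NP. These shares also stand beside the counts of the other lists. P3h2, a prolyl 3-hydroxylase that acts on type IV collagen, was at 31.6 and 35.2 FPKM on LP, 47.6, 44.1 and 46.9 FPKM on NP, and 49.5, 37.4 and 40.6 FPKM on HP. Its log2 fold change for LP against NP was -0.46 (standard error 0.15, adjusted p = 0.410). Pcolce, which helps to cleave fibrillar procollagen, had 0.82 for HP against LP (0.30, adjusted p = 0.333). Of 15 matrix receptors, 1 was higher for HP against NP and 2 for HP against LP, and 1 was higher and 1 lower for LP against NP. Dag1, dystroglycan, which binds laminin, agrin and perlecan, was at 9.62 and 10.8 FPKM on LP, 16.7, 16.6 and 16.3 FPKM on NP, and 21.8, 16.2 and 11.5 FPKM on HP. LP lay below NP without overlap (16.4% of all genes did), at -0.64 for LP against NP (0.23, adjusted p = 0.418). HP lay above LP without overlap (12.8%), at 0.60 for HP against LP (0.23, adjusted p = 0.343). Itga8, an integrin chain that binds fibronectin and nephronectin, had 0.54 for HP against NP (0.21, adjusted p = 0.514).

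Of 7 tested matrix proteases and inhibitors, 0 were under an unadjusted p of 0.05 in any comparison. Of 14 genes of the TGF beta pathway, which drives collagen synthesis in fibroblasts, 1 was higher and 1 lower for HP against NP, 2 and 1 for HP against LP, and 1 and 4 for LP against NP. Ccn1, a matricellular protein and a target of mechanical signals, was at 30.6 and 32.3 FPKM on LP, 19.6, 9.30 and 15.8 FPKM on NP, and 16.9, 12.5 and 20.6 FPKM on HP. It was thus highest on LP without overlap (12.7% of all genes against NP and 20.3% against HP). Its log2 fold change was 1.09 for LP against NP (standard error 0.29, adjusted p = 0.409) and -0.91 for HP against LP (0.29, adjusted p = 0.301). Tgfb1 had 0.54 for HP against NP (0.19, adjusted p = 0.484). None of these genes passed the adjusted threshold by limma.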

How the data were processed

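RNA was measured in 8 libraries of sorted cells, each from a pool of 2 to 3 mice. The deposited values are FPKM, which the authors computed with RSEM 1.3.3 against GENCODE M26 (GRCm39) after trimming with Trim Galore 0.6.7. The labels and the methods name different library kits, so the strand setting is unsettled. Symbols came from GENCODE M21 (52147 of 53700 identifiers). As that release is on GRCm38, no GRCm39 position is given, and promoters are on GRCm38.p6.

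Depth was estimated on a grid, where 79.8 to 86.4% of low values lay within 0.15 of a whole fragment (30.0% if spread evenly). It gives no counts, so no count model was used. The 13566 genes that reached 1 FPKM in 2 or more libraries were fitted with limma 3.58.1 (R 4.3.3), on log2(FPKM + 1), with a variance trend, 1 mean per diet and all 8 libraries, and p-values were adjusted over all of them (Benjamini-Hochberg). Fold changes are on that scale, which understates changes of low genes. Libraries of one label (F2 or M) deviated together (r 0.145 to 0.346 over 6 pairs), so the label was used as a block in an alternative. P-values measure the spread between these pools.

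The genes, lists and tests were chosen with earlier results of these data known. Genes with a mean of at least 1 FPKM are named. Values in every library are given for the 3 smallest p-values in each comparison and the 2 highest genes of each role. Col12a1, Nid1, Lama2, Col4a6, Col1a1, Col5a1, Col5a3, Lamb3 and Col7a1 were also named after their values were seen. Context genes have the smallest p of their list. Counts and sums include 1 gene whose own values are not reported here.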

Additional observations from a re-analysis of the deposited data

How the results depend on the processing

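Each comparison was refitted under 22 alternatives (pseudocount, filter on low values, scaling, variance prior, library weights, diets fitted, label block, sex letter and each library left out). Under all of them 0 of the genes described passed the adjusted threshold, and the smallest adjusted p was 0.105 for HP against NP (with the block), 0.0797 for HP against LP (array weights) and 0.120 for LP against NP (sex letter). The counts at an unadjusted p under 0.05 ran from 1 to 6 higher and 0 to 5 lower for HP against NP, 4 to 10 and 0 to 1 for HP against LP, and 0 to 2 and 0 to 10 for LP against NP. Over the same alternatives the share of all genes ran from 1.52 to 5.59% higher and 2.65 to 16.2% lower, 1.98 to 8.58% and 2.81 to 14.7%, and 1.84 to 10.5% and 1.54 to 12.3%. The genes named with fold changes kept their sign throughout, except Col27a1 for HP against NP, at -0.0024 with the label as replicate block. The cause was not tested.

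With the block, the median of the basement membrane collagens for HP against NP was 0.06, beside -0.13 for all genes, and the block changed no call. The ratio of basement membrane to interstitial collagens averaged 10.4 over the 8 libraries. It was 26.6 with all basement membrane genes and 23.1 for type IV against types I and III. With Col27a1 among the interstitial collagens (added after seeing the data) it was 4.70. These lists hold other genes. When a library was left out, the ratio was 9.76 to 10.7. All of these are means over the 3 diets together and do not test the order of the diets. The median of the interstitial collagens for LP against NP turned above 0 under 3 alternatives, to at most 0.11 without LP M. Low genes limit this side: 5 of 15 interstitial collagens were tested.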
